A study of Mus musculus with 17 samples.

Results

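The ADAMTS proteases Adamts1, Adamts4, Adamts5, Adamts9 and Adamts15 were selected by gene symbol, as 5 of the 25198 genes in the table. All were present, and 4 of them had enough counts to be tested.

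The samples were antral ovarian follicles of CD1 mice aged 16 days, grown for 8 days in eIVFG, a culture system in which single follicles develop in a gel. Each sample held 3 follicles. The 6 Tyrphostin libraries (3 in each of 2 batches named by the labels) came from follicles exposed for 4 h to hCG, the hormone used to start ovulation in culture, together with 10 µM Tyrphostin-AG1478, an inhibitor of the EGF receptor kinase dissolved in DMSO. There were 11 Control libraries (6 in batch 1 and 5 in batch 2). Since all samples carry 1 treatment text, it is not stated whether hCG and DMSO were also given to Control follicles. The Control library names carry set numbers, and whether libraries of 1 set share animals is not stated either, so p-values measure the spread between these libraries, which may be partly technical.

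ADAMTS enzymes are secreted zinc metalloproteases with thrombospondin-type repeats. They are made as precursors whose propeptide is removed by proprotein convertases such as furin. Many of them cut the large hyaluronan-binding proteoglycans versican and aggrecan. In the ovulating follicle these proteoglycans are part of the matrix around the cumulus cells, and Adamts1, a progesterone receptor target in granulosa cells, cuts versican there.

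All of these genes encode the zinc-binding site of the catalytic domain, whose 3 histidine residues hold the metal. The 33 coding bases of that site are shown as the stretch the members have in common, and to show how close they are to one another in it. They were read from the GENCODE M21 transcripts (GRCm38), 5′ to 3′, with the 3 histidine codons in capitals:
Adamts1: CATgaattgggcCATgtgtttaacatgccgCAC
Adamts4: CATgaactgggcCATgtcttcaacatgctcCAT
Adamts5: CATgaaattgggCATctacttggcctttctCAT
Adamts9: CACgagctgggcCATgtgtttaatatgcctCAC
Adamts15: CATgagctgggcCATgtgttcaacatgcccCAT

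Adamts5 was the most distant of the 5 in this stretch. It shared between 18 and 20 of the 33 bases with each other member, whereas the other members shared between 25 (Adamts4 and Adamts9) and 30 (Adamts4 and Adamts15) with one another.

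The genes lie on 4 chromosomes (GRCm38, GENCODE M21). Adamts1 (ENSMUSG00000022893.14) occupies chr16:85793827-85803113 and Adamts5 (ENSMUSG00000022894.6) occupies chr16:85856173-85901828, both on the minus strand, with 53059 bases and no protein-coding gene between them. Adamts4 (ENSMUSG00000006403.13) is on the plus strand at chr1:171250421-171260637, Adamts9 (ENSMUSG00000030022.14) on the minus strand at chr6:92772699-92943492, and Adamts15 (ENSMUSG00000033453.8) on the minus strand at chr9:30899155-30922452. The strand setting of the counting is not given in the sources used here, and genes on the opposite strand share exonic bases with Adamts9. A730049H05Rik and Gm15737 cover 1381 and 424 of the 15048 exonic bases of Adamts9, so reads from these stretches cannot be assigned to 1 strand.

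Library totals ran from 1820545 to 8291024 counts, so a floor of 3 counts lay between 0.362 and 1.65 CPM (counts scaled to library size), which covers counting error only. The summed granulosa markers ran from 52504 to 81255 CPM, with Inha and Inhba carrying most of it. Of the 8 granulosa markers 6 were tested, and 3 were called higher in Tyrphostin libraries by edgeR, against 4.35% of all genes tested. These were Cyp19a1, the aromatase gene (log2 fold change 2.35, adjusted p = 2.84e-07), the nuclear receptor gene Nr5a2 (2.18, adjusted p = 8.38e-09) and the FSH receptor gene Fshr (0.83, adjusted p = 0.0344). Inha, Inhba and Nr5a1, not among those called higher, averaged 44568, 24329 and 52.8 CPM over Control libraries. They averaged 43006, 23043 and 48.7 CPM over Tyrphostin libraries. The part of the granulosa markers in the results on the proteases was not tested. Amh, a marker of less mature granulosa cells, had no count in 10 of 11 Control libraries, and Foxl2 did not exceed 6 counts in them. In Tyrphostin libraries Amh had no count in 2 of 6 and reached 4 counts, and Foxl2 reached 30 counts. The summed theca and stroma markers (9 genes) ran from 269 to 2165 CPM in Control and from 275 to 3090 CPM in Tyrphostin libraries, where Tyrphostin 5 held the highest value. The endothelial markers (5 genes) summed to between 8.54 and 88.7 CPM in Control and between 8.77 and 32.9 CPM in Tyrphostin libraries, with Pecam1 at 0 in 2 Control libraries. The oocyte markers (8 genes) summed to between 18.3 and 84.8 CPM in Control and between 20.5 and 209 CPM in Tyrphostin libraries. The immune markers (5 genes) summed to between 11.6 and 26.3 CPM and between 11.5 and 36.4 CPM, with Ptprc at 0 in 4 Control libraries and 1 Tyrphostin library. Control 7 stood apart in its share of counts on mitochondrial genes, 0.175% against 1.74% to 2.83% in the other Control libraries. In Tyrphostin 1 to 6 this share was 2.07%, 1.55%, 2.50%, 0.781%, 1.32% and 0.797%, so that 4 of the 6 lay below every Control library but Control 7. In these bulk samples, fewer cells of a type and less RNA per cell cannot be told apart.

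Levels were first ordered within the follicle, as CPM per kilobase of exon so that genes of different length can be compared. Adamts1 was the most abundant, with 160 CPM per kb ± 63.6 (SD, n = 11) in Control libraries. Adamts4 followed with 26.1 ± 10.6, Adamts9 with 6.04 ± 0.662, Adamts5 with 1.93 ± 0.828 and Adamts15 with 0.123 ± 0.148 CPM per kb (SD, n = 11). The order was the same in the 6 Tyrphostin libraries, at 155, 13.6, 3.58, 2.47 and 0.139 CPM per kb. Within single libraries, with this exon length, Adamts1 exceeded the other members in 17 of 17, and Adamts4 exceeded Adamts9 in 17 of 17. The neighbours that changed places were Adamts5 and Adamts9, with Adamts5 above Adamts9 in 2 of 17 libraries. Adamts1 made up a median of 80.4% of the summed per-kilobase level of the 5 genes in Control (range 60.5% to 90.6%) and 90.2% in Tyrphostin libraries (77.8% to 95%).

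The main comparison asked which of these proteases differed between follicles given the EGF receptor inhibitor and Control follicles. Adamts4 and Adamts9 were lower in Tyrphostin libraries, by 2.22-fold and 1.69-fold. Adamts1, the abundant member, and Adamts5 did not pass the test. Adamts15 was too scarce for the filter on low counts. With batch as a term, 2 of the 4 members tested were called lower and none higher in edgeR's quasi-likelihood test (adjusted p under 0.05). Among all 9603 genes tested, 6.25% were called lower and 10.6% in either direction. Higher calls made up 4.35%. These were 418 higher and 600 lower genes, whereas scaling by total count alone gave 715 higher and 396 lower and moved the median of all genes to 0.15. Under that scaling Adamts9 was at -0.60 (edgeR adjusted p = 0.0189) and Adamts4 at -0.99 (edgeR adjusted p = 0.0485). The median log2 fold change of the 4 members was -0.37, against 0 over all genes tested.

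**Figure D1:**
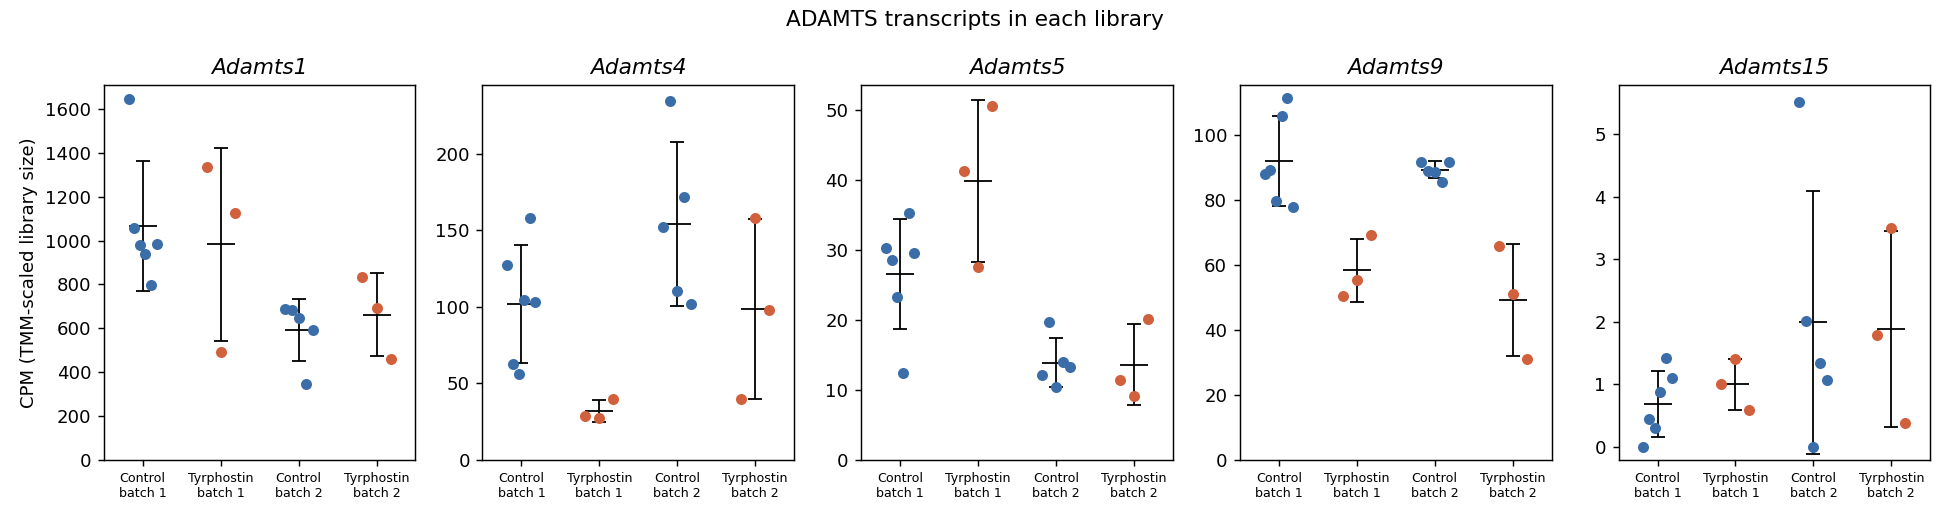
CPM of each ADAMTS transcript (y axis, linear, from TMM-scaled library sizes) in every library, by group and batch (x axis); points are libraries, and the bars give mean ± SD of 3 to 6 libraries. Adamts9 is the member in which the 6 Tyrphostin libraries (31.1 to 69.3 CPM) lie below all 11 Control libraries (77.7 to 111 CPM).

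Adamts9 belongs to a distinct clade of the family with a long C-terminal part of many thrombospondin repeats, and cuts versican and aggrecan. In batch 1 its Control level ran from 77.7 through a median of 88.7 to 111 CPM, and the Tyrphostin libraries held 50.4, 55.5 and 69.3 CPM. In batch 2 the Control libraries held 91.9, 89, 88.6, 85.7 and 91.8 CPM and the Tyrphostin libraries 65.7, 50.9 and 31.1 CPM. All 6 Tyrphostin libraries were therefore below every Control library, as was the case for 96 of the 9603 genes tested (1%). The log2 fold change was -0.75 ± 0.16 (SE; edgeR adjusted p = 0.00232), with a 95% interval from -1.08 to -0.43. The part of the mitochondrial share in this result was not tested.

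The Control level of Adamts9 was also steady. Its coefficient of variation was 11% over the 11 Control libraries, against a median of 37.1% over all genes tested, and 0.364% of these genes had a lower one. In Tyrphostin libraries the coefficient was 25.2%. The values for Adamts1, Adamts4 and Adamts5 in Control libraries were 39.6%, 40.8% and 42.9%. These coefficients pool both batches, between which Adamts1 and Adamts5 also differed in Control libraries. The genes compared were not matched for abundance.

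Adamts4, known as aggrecanase-1, is a compact member that cuts aggrecan and versican. In batch 1 its Control level ran from 56.2 through a median of 104 to 158 CPM, and the Tyrphostin libraries held 28.8, 27 and 40 CPM, all below the lowest Control library, as in 6.46% of the genes tested in that batch. In batch 2 the Control libraries held 152, 234, 110, 171 and 102 CPM and the Tyrphostin libraries 39.8, 158 and 97.7 CPM. There Tyrphostin 5 was within the Control range, so the groups overlapped, while 4.89% of the genes tested in that batch had all Tyrphostin libraries below Control. Over both batches the log2 fold change was -1.15 ± 0.30 (SE; edgeR adjusted p = 0.0165). No Control library reached down to the 4 lowest of the 6 Tyrphostin libraries.

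The Adamts4 call rested on the batch term and on single libraries. The edgeR adjusted p was 0.144 without the batch term, 0.0560 with Control libraries summed by set, 0.0559 without Tyrphostin 1 and 0.0558 without Tyrphostin 2. No statistic of Adamts4 against the theca and stroma markers was computed, and values of single libraries are given. Tyrphostin 5, with the highest Adamts4 level of its group, held 3090 CPM of these markers. Control 8, with the highest of all, held 2029 CPM. Tyrphostin 1, 2 and 3, with 3 of the 4 lowest Adamts4 levels, held 332, 422 and 275 CPM, but Tyrphostin 4, also low, held 821 CPM. Control 7 held 2165 CPM of the markers at an Adamts4 level of 152 CPM. Control 5 held 766 CPM of them at an Adamts4 level of 158 CPM. The part of these cells in the Adamts4 result was not tested. Control 7 and Tyrphostin 5, which had the highest marker sums of their groups, were also left out together, a choice made after seeing the data. The Adamts4 log2 fold change was then -1.45 (edgeR adjusted p = 0.00203) and that of Adamts9 was -0.74 (edgeR adjusted p = 0.00444). This omission removed the highest Adamts4 level of the Tyrphostin group, so it does not test the part of these cells. Without Tyrphostin 5 alone the Adamts4 value was -1.44.

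Adamts1 was measured at high depth, with between 1488 and 9294 counts per library. In batch 1 its Control level ran from 796 through a median of 983 to 1645 CPM, and the Tyrphostin libraries held 1333, 490 and 1128 CPM. In batch 2 the Control libraries held 687, 683, 646, 348 and 591 CPM and the Tyrphostin libraries 835, 692 and 460 CPM. The groups overlapped in both batches, and 3 of 6 Tyrphostin libraries lay on each side of the Control median taken over both batches. Against the Control median of their own batch, 2 of 3 Tyrphostin libraries lay above it in batch 1 and 2 of 3 in batch 2. The log2 fold change was 0.02 ± 0.22 (SE; edgeR adjusted p = 0.968), with a 95% interval from -0.43 to 0.47, so a change as large as that of Adamts4 lay outside it.

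Adamts5, known as aggrecanase-2, was present at lower counts (24 to 288 per library). In batch 1 its Control level ran from 12.5 through a median of 29 to 35.3 CPM, and the Tyrphostin libraries held 41.3, 27.5 and 50.5 CPM. In batch 2 the Control libraries held 12.1, 19.7, 10.4, 14 and 13.2 CPM and the Tyrphostin libraries 11.4, 9.16 and 20.1 CPM. Tyrphostin 1 and 3 were above all Control libraries, while those of batch 2 lay among the Control libraries of that batch or just outside them. The log2 fold change was 0.30 ± 0.22 (SE; edgeR adjusted p = 0.448), with a 95% interval from -0.16 to 0.75.

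Adamts15, another hyaluronan-proteoglycan protease of the same group as Adamts1 and Adamts4, was near the limit of detection. It had between 0 and 21 counts in Control libraries, with 0 in Control 1 and Control 9, and between 2 and 13 counts in Tyrphostin libraries. The highest values were 5.51 CPM in Control 7 and 3.5 CPM in Tyrphostin 5, and the groups overlapped. Control 7 and Tyrphostin 5 were also the libraries with the highest theca and stroma marker sum of their groups (2165 and 3090 CPM), and the part of these cells in the Adamts15 level was not tested. With no filter on low counts its log2 fold change was 0.23 ± 0.52 (SE; edgeR adjusted p = 0.886), with a 95% interval from -0.81 to 1.27.

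The effect was then taken within each batch. In batch 1 Adamts4 was the member called, with a log2 value of -1.67 ± 0.32 (SE; edgeR adjusted p = 0.00358). Adamts5 was there at 0.59 ± 0.28 (SE; edgeR adjusted p = 0.228) and Adamts1 at -0.11 ± 0.30 (SE; edgeR adjusted p = 0.883). Of 9423 genes tested in that batch 3.79% were called lower, 2.94% higher and 6.73% in either direction. With total-count scaling the 277 higher and 357 lower genes of batch 1 became 459 and 264, and the 19 and 42 of batch 2 became 26 and 29. Adamts9 had a log2 value of -0.65 ± 0.22 (SE; edgeR adjusted p = 0.0821) in batch 1 and one of -0.86 ± 0.25 (SE; edgeR adjusted p = 0.171) in batch 2, so neither batch alone passed the threshold. In batch 2, where 0.621% of 9830 genes were called in either direction (0.427% lower and 0.193% higher), edgeR called none of the 4 members. Adamts9 alone had an unadjusted p under 0.05 there (0.00536), as had 10.7% of all genes tested. The values there were -0.65 ± 0.41 for Adamts4, 0.17 ± 0.30 for Adamts1 and -0.04 ± 0.32 for Adamts5 (SE). Without Tyrphostin 5 the Adamts4 value in batch 2 was -1.17, and without Tyrphostin 4 it was -0.27.

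**Figure D2:**
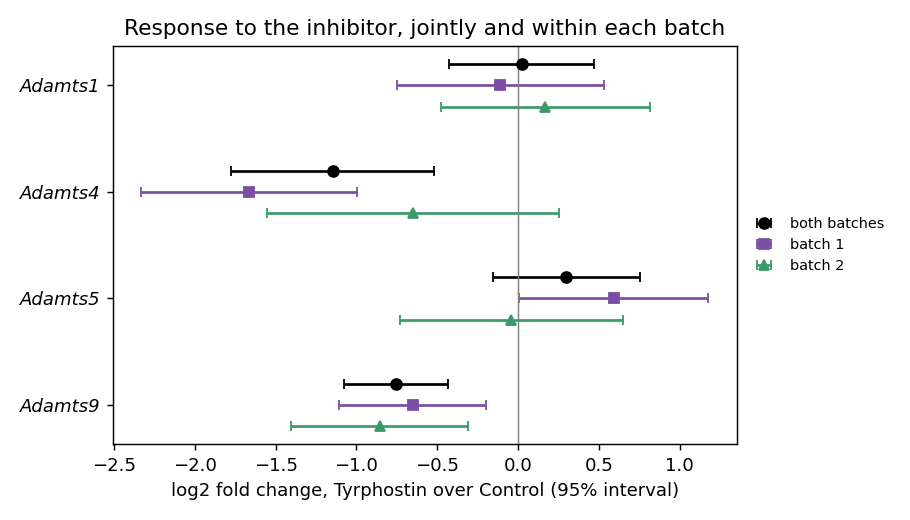
Log2 fold change of Tyrphostin over Control (x axis) with 95% intervals for the 4 members tested (y axis), over both batches (circles) and within batch 1 (squares) and batch 2 (triangles). The Adamts9 values lie close together (-0.65 and -0.86 within batches), and the Adamts4 values lie farther apart (-1.67 and -0.65).

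The difference between batches was itself tested as an interaction. Of 9603 genes, 0 (0%) had an edgeR adjusted p under 0.05, and 342 (3.56%) had an unadjusted p under 0.05. The interaction of Adamts4 was 1.02 ± 0.53 (SE; unadjusted p = 0.0684, edgeR adjusted p = 0.9997), and those of Adamts1, Adamts5 and Adamts9 had unadjusted p of 0.529, 0.162 and 0.527. None of the 4 members tested thus passed the test of unequal effects in the 2 batches.

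Whether the members differed from one another in their response was tested with the log2 ratio of 2 members within each library, which does not depend on the scaling between libraries. Of 6 pairs, 4 differed between Tyrphostin and Control libraries (exact two-sided permutation test over 4704 arrangements within batches, adjusted over the 6 pairs, which share genes). The ratio of Adamts9 to Adamts1 differed by -0.77 (log2, averaged over batches; exact permutation p = 0.00999, adjusted p = 0.0150). That of Adamts4 to Adamts1 differed by -1.17 (exact permutation p = 0.00829, adjusted p = 0.0150). On average, Adamts4 and Adamts9 were thus lower relative to Adamts1 in Tyrphostin libraries. The groups overlapped in both ratios. The ratio of Adamts4 to Adamts1 lay below the lowest Control value in 4 of 6 Tyrphostin libraries, and that of Adamts9 to Adamts1 in 1 of 6.

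The ratio of Adamts9 to Adamts5 differed by -1.05 (exact permutation p = 0.00106, adjusted p = 0.00510), and that of Adamts5 to Adamts4 by 1.45 (exact permutation p = 0.00170, adjusted p = 0.00510). The other 2 pairs did not pass the test. Adamts5 to Adamts1 differed by 0.28 (exact permutation p = 0.418, adjusted p = 0.418) and Adamts9 to Adamts4 by 0.40 (exact permutation p = 0.288, adjusted p = 0.345). Both ratios to Adamts1 depended on single libraries. Adamts4 to Adamts1 had an adjusted p of 0.0548 without Tyrphostin 1 and 0.0663 without Tyrphostin 4 in the exact permutation test, and Adamts9 to Adamts1 one of 0.0698 without Tyrphostin 1.

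**Figure D3:**
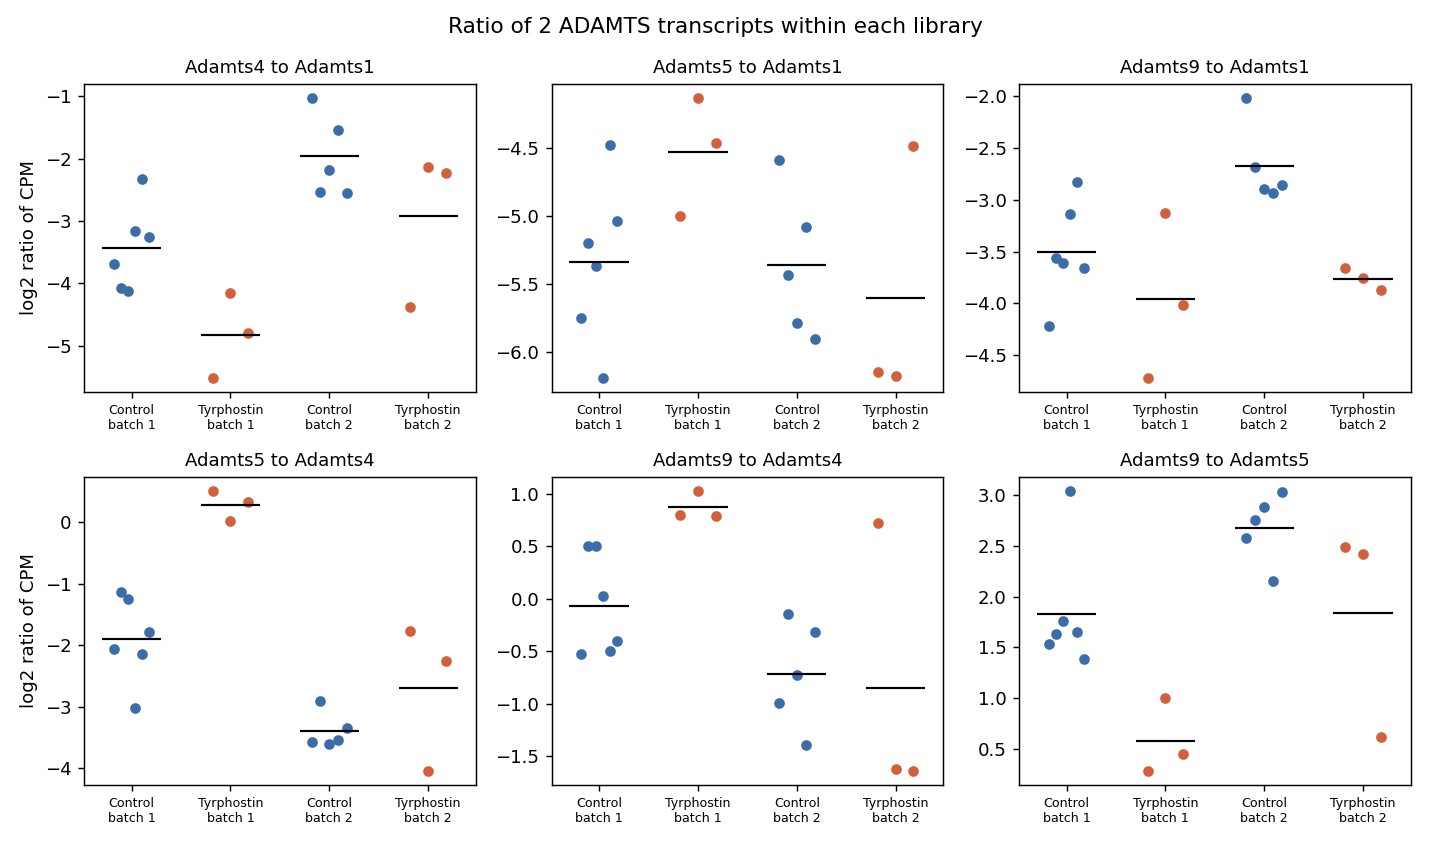
Log2 ratio of the CPM of 2 members (y axis) in each library, by group and batch (x axis); points are libraries and lines are means. In the panel of Adamts9 to Adamts5 the Tyrphostin means lie below the Control means in both batches (-1.25 in batch 1 and -0.84 in batch 2).

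Control libraries alone were then compared between batches. Adamts1 was lower in batch 2, at 591 CPM ± 141 (SD, n = 5) against 1067 CPM ± 296 (SD, n = 6), and the 5 libraries of batch 2 were below all 6 of batch 1, as was the case for 3.99% of the genes tested. Its log2 difference was -0.85 ± 0.24 (SE; edgeR adjusted p = 0.0296). Its chromosomal neighbour Adamts5 differed by -0.90 ± 0.26 (SE; edgeR adjusted p = 0.0324). It averaged 26.5 CPM ± 7.88 (SD, n = 6) over the batch 1 Controls and 13.9 CPM ± 3.53 (SD, n = 5) over those of batch 2. Of 9128 genes tested, 5.5% were called lower in batch 2, 5.5% higher and 11% in either direction, or 502 genes each way, which total-count scaling turned into 907 higher and 281 lower. Adamts4 differed by 0.61 ± 0.28 (SE; edgeR adjusted p = 0.176) and Adamts9 by -0.03 ± 0.16 (SE; edgeR adjusted p = 0.93).

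Both calls between batches lay close to the threshold. For Adamts1 the edgeR adjusted p rose to 0.0613, 0.0557, 0.0503, 0.0873 and 0.055 without Control 1, 2, 3, 10 and 11. For Adamts5 it lay between 0.0517 and 0.0762 in the fits without Control 1, 2, 3, 5, 6, 9, 10 or 11, and was 0.107 with total-count scaling.

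The start regions of Adamts1 and Adamts9 are shown because the first is the abundant member with no detected change and the second the member whose groups did not overlap. They are the 2 of 5 members with an entry in the RefSeq promoter table (GRCm38.p6), and the 250 bases before the start are given on the minus strand, at chr16:85803114-85803363 for Adamts1 and chr6:92943535-92943784 for Adamts9. Capitals mark matches on either strand. The basal promoter motifs searched were the TATA box, spelled TATAAA, the box bound by Sp1-type factors, spelled GGGCGG and called the GC box, and the motif spelled CCAAT. The motifs of factors known in ovulation were those of AP-1, spelled TGANTCA, of the cyclic AMP response element, whose core is TGACG, and of RUNX factors, whose core is TGTGGT. The C/EBP motif was searched as TTGCNNAA, the core of the progesterone response element as TGTTCT, and the E-box as CANNTG. The matches marked do not overlap one another:
Adamts1: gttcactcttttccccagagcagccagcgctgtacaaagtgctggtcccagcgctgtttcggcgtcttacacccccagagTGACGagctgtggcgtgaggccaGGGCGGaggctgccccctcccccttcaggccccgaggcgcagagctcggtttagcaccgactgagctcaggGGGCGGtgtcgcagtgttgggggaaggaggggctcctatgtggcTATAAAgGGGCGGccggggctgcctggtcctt
Adamts9: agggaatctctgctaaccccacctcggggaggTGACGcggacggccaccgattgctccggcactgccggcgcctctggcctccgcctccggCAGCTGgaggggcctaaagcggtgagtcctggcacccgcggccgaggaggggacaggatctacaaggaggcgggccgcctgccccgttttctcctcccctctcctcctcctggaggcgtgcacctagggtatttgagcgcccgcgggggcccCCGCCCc

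Adamts1 had a TATA box match whose first base lay 32 bases before the start, and 3 GC box matches. At any position and on either strand, 12.4% of 32851 promoters of this length hold the TATA box and 32.7% the GC box. Adamts9 had 1 GC box match 7 bases before the start, 1 E-box match (66.2% of promoters) and no TATA box match. Both held 1 core of the cyclic AMP response element (17.8% of promoters), 170 bases before the start of Adamts1 and 218 bases before that of Adamts9. The RefSeq start of Adamts9 lies upstream of its GENCODE start at chr6:92943492, so its distances depend on the annotation. The other motifs had no match in these windows, and 6.75% of all promoters hold the AP-1 motif and 16.1% the progesterone core. The sequences were 65.6% and 71.2% G or C, against a median of 52.4%.

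The genes whose levels followed each member most closely over the 17 libraries were ranked by Pearson's r of log2 CPM among 6302 well-expressed genes, as a description of libraries that share batch and treatment. For Adamts9 they were Fam84a (r = 0.90), the Notch ligand Jag1 (0.89) and the heparan sulfate sulfotransferase Hs6st1 (0.88), and these had log2 fold changes of -2.04, -1.87 and -0.71 (edgeR adjusted p = 4.63e-05, 3.11e-07 and 0.0168). For Adamts4 they were the oncostatin M receptor gene Osmr (0.95), the actin-binding protein gene Lima1 (0.92) and the aldo-keto reductase gene Akr1b8 (0.85), of which Akr1b8 was called (log2 fold change -1.24, edgeR adjusted p = 0.0103). For Adamts1 they were Ykt6 (0.89), Myof (0.89) and the sterol regulator gene Srebf2 (0.88), with log2 fold changes between -0.11 and 0.08. For Adamts5 they were Scmh1 (0.95), Slc6a15 (0.87) and Pitpnm1 (0.86), of which Slc6a15 was called higher (log2 fold change 0.60, edgeR adjusted p = 0.0369).

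The remaining members of the family were mostly scarce. Of 14 other ADAMTS genes, 5 were tested and 1 was called lower, against 6.25% of all genes tested. This was Adamts3, a protease that processes procollagen and activates the lymphatic growth factor VEGF-C. Control libraries averaged 10.5 CPM ± 5.45 (SD, n = 11), and the Tyrphostin group averaged 4.04 CPM ± 2.15 (SD, n = 6). On the log2 scale this was -1.29 ± 0.27 (SE; edgeR adjusted p = 0.00273). It was called lower within batch 1 (-1.33), and among Control libraries it was called lower in batch 2 than in batch 1, also by -1.33. Adamts2, a procollagen protease, differed by 1.04 ± 0.45 (SE; edgeR adjusted p = 0.161) over both batches and was called higher within batch 1, at 1.79 ± 0.48 (SE; edgeR adjusted p = 0.036). The median log2 fold change of the 5 was -0.30. None of the 7 genes of ADAMTS-like proteins, which lack the protease domain, passed the filter on low counts.

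Of 8 genes for proteoglycan substrates and their link proteins, 2 were tested. Vcan, the gene of versican, was abundant, averaging 5458 CPM ± 2117 (SD, n = 11) over Control libraries, while the Tyrphostin group averaged 3115 CPM ± 826 (SD, n = 6). Its log2 value of -0.81 ± 0.27 (SE; edgeR adjusted p = 0.0532) was just outside the threshold. Bcan differed by 0.05 ± 0.27 (SE; edgeR adjusted p = 0.941), and Acan, the gene of aggrecan, did not exceed 41 counts in any library.

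Of 13 genes for processing, inhibition and clearance of these enzymes, 12 were tested. Of these, 2 were called lower, against 6.25% of all genes tested, and 10 were not called, with a median log2 fold change of -0.38. Furin, a convertase that removes the propeptide, averaged 28.5 CPM ± 12 (SD, n = 11) over Control libraries, and 11.7 CPM ± 2.80 (SD, n = 6) over the Tyrphostin group. The log2 value was -1.23 ± 0.24 (SE; edgeR adjusted p = 0.00122). The other convertase genes of the list, Pcsk5 and Pcsk6, were not called. Pcsk5 was far more abundant than Furin, averaging 1862 CPM over Control libraries and 1534 CPM over the Tyrphostin group. Pcsk6 averaged 7.16 and 4.33 CPM. Timp1, a metalloproteinase inhibitor, was at a mean of 177 CPM ± 111 (SD, n = 11) over Control libraries, against 42.4 CPM ± 19.2 (SD, n = 6) in the Tyrphostin group. The log2 value was -2.05 ± 0.38 (SE; edgeR adjusted p = 0.00151). Timp3, an inhibitor of several ADAMTS enzymes, had a log2 value of -0.67 ± 0.27 (SE; edgeR adjusted p = 0.118) over both batches and was called lower within batch 1, at -1.23 ± 0.29 (SE; edgeR adjusted p = 0.0144). Furin and Timp1 were also called lower within batch 1, at -1.33 and -1.90. The clearance receptor gene Lrp1 and the glycosyltransferase genes Pofut2 and B3glct, which modify thrombospondin repeats, had log2 fold changes of -0.20, 0.24 and -0.20 and were not called. Between Control batches 4 of the 12 genes tested in this list were called. In batch 2 Timp2 (log2 1.83) and Sdc4 (2.35) were higher and Fbln1 (-1.13) and Fn1 (-0.89) lower. Among all genes tested between Control batches, 5.5% were called higher and 5.5% lower.

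**Figure D4:**
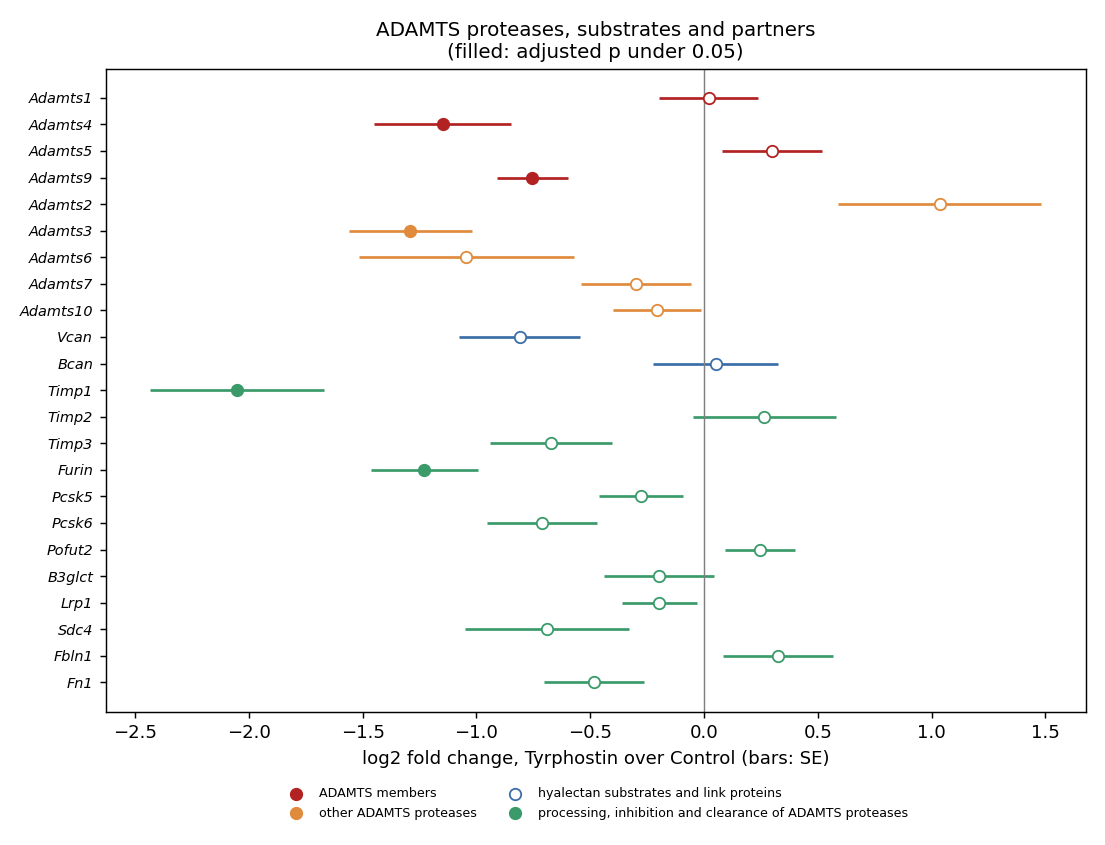
Log2 fold change of Tyrphostin over Control over both batches (x axis; bars are SE) for the tested ADAMTS genes, substrates and partners (y axis), coloured by gene list; filled points have an edgeR adjusted p under 0.05. The filled points are Adamts4, Adamts9, Adamts3, Timp1 and Furin, and all lie below 0.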

How the data were processed

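Per the labels' protocols, the libraries are Smart-Seq2 (full-length, no molecular identifiers) from bead-purified RNA. The authors deposited raw counts, 1 row for each symbol, with STAR, HTSeq and build GRCm38 named in the submitters' processing notes; versions, annotation and strand setting are not given in the sources used here.

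The test was edgeR's quasi-likelihood test (edgeR 4.0.16, R 4.3.3) on counts past filterByExpr (TMM, glmQLFit with robust estimation, Benjamini-Hochberg adjustment over all genes tested, threshold 0.05). The SE is the absolute log2 fold change divided by the square root of F. CPM uses TMM-scaled library sizes, and log2 CPM a prior count of 2. Gene lengths came from GENCODE M21. Overlaps of Adamts4 with other genes are not reported here. No library was a copy of another in its group and batch (31 pairs; lowest ratio of chi-square to its degrees of freedom 11.8). On simulated counts for the joint comparison (9412 genes), 66.3% of genes changed by 1 log2 unit were recovered and 98% of those changed by 2, and 6.94% of the calls were false.

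Control numbers 1 to 6 and Tyrphostin numbers 1 to 6 are not stated to pair samples. Members and lists were chosen with earlier results of these data known. Members, genes of the pathway lists (all those called) and the 3 genes most like each tested member (average log2 CPM of at least 3) are named; marker genes were named after their values were seen. Alternatives were other scalings (RLE, total count, upper quartile), limma-voom (limma 3.58.1), DESeq2 1.42.0, other filters and covariates, summed sets, a replicate block and omission of each library. Omission of Control 7 and Tyrphostin 5 together was chosen after seeing the data.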

Additional observations from a re-analysis of the deposited data

Results flagged for a closer look

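Outlying libraries were looked for in 14 measures, in groups of 5 or 6 libraries. Of these 42 groups, 7 had an outlying library, and chance gives about 2.1.

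Adamts1 was far above the rest of its group in Control 1, at 1645 CPM, where the remaining batch 1 Controls had 796 to 1058 CPM. It was far below the rest in Control 10, at 348 CPM, where the remaining batch 2 Controls had 591 to 687 CPM. Tyrphostin 5 had a theca and stroma marker sum of 3090 CPM (275 to 1090 CPM elsewhere in its group) and an immune marker sum of 36.4 CPM (11.5 to 15.5 CPM elsewhere). Control 6 had an immune marker sum of 26.3 CPM (11.6 to 15.8 CPM in the remaining batch 1 Controls) and the smallest library, 1820545 counts (3807300 to 4834875 in those). The granulosa marker sum of Control 4 was 81255 CPM (67862 to 72062 CPM in those).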

How the results depend on the processing

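Adamts9 kept its direction and its call in 12 of 13 alternatives (all but the replicate block, which kept its direction) and all 17 omissions of a library (log2 fold change from -0.84 to -0.64, with edgeR adjusted p from 0.00184 to 0.00888). Adamts4 kept its direction throughout (-1.44 to -1.01 over omissions) and lost its call without the batch term (-0.95) and with Control libraries summed by set (-1.11). Adamts1 was never called. Its value turned negative with limma-voom (-0.023), without the batch term (-0.047) and with log10 total count as a covariate (-0.00090), and ran from -0.076 to 0.18 over omissions. Adamts5 ran from 0.17 to 0.43 over omissions.

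Control and Tyrphostin libraries share replicate numbers 1 to 6 in the labels. Deviations from the group mean over both batches correlated between same-numbered libraries with r = 0.47, 0.31, 0.38, 0.01, -0.13 and -0.06. Of these, numbers 4 to 6 cross batches, and 7 of 12 libraries correlated best with their own number. The deviations were not adjusted for batch, so libraries of 1 batch share its shift and these values cannot show whether numbers pair samples. With the replicate block over these 12 libraries, 624 genes were called in place of 1018, Adamts9 was at -0.57 (edgeR adjusted p = 0.160), Adamts1 at -0.40 (0.473) and Furin at -0.81 (0.0660). Numbers 4 to 6 cross batches, so in this fit they cannot separate treatment from batch. The treatment effect of the block fit therefore rests on the same-numbered libraries within batch 1. The block fit thus uses fewer libraries, and the cause of each change was not tested further.

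The count of 1018 was 619 without the batch term and 678 with log10 total count, and ran from 708 to 1314 over omissions. With total-count scaling 715 genes were higher and 396 lower, in place of 418 and 600, and the median of all genes was 0.15; the directions of Adamts1, Adamts4, Adamts5 and Adamts9 over both batches held. DESeq2 called 1313. The batch 1 count of 634 ran from 394 (without Tyrphostin 2) to 687. The batch 2 count of 61 was 222 with no filter and over omissions was lowest at 11 (Tyrphostin 6 omitted) and highest at 221 (Control 7 omitted). The interaction gave 79 genes with no filter, and the Control batch count of 1004 ran from 660 (without Control 3) to 1063. Total-count scaling turned Adamts1 positive within batch 1 (0.043), Adamts5 positive within batch 2 (0.041) and Adamts9 positive between Control batches (0.15). Over omissions Adamts1 ran from -0.39 to 0.22 in batch 1 and from -0.035 to 0.38 in batch 2, Adamts5 from -0.44 to 0.16 in batch 2, the interactions of Adamts1 and Adamts9 from -0.041 to 0.56 and from -0.45 to 0.045, and Adamts9 between Control batches from -0.075 to 0.031.

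The ratio of Adamts4 to Adamts1 ran from -1.36 to -0.80 and that of Adamts9 to Adamts1 from -0.97 to -0.58 over omissions. With the length of the longest transcript Adamts9 was at 11.3 CPM per kb in Control libraries, and the order of the 5 genes by group mean was the same. The order within single libraries was counted with the exon length only. Depth limits Adamts15, with 0 to 21 counts per library.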
